A study of Mus musculus with 12 samples.

Results

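The genes BC055402, Gpr135, Gramd2, Chrnb4, Baiap2l2, Slc9a2, Lingo3, Notum, Ranbp3l and Cpz were described across 4 populations sorted as vessel cells from mouse bone marrow. These 10 of the 17362 genes in the table were chosen by their levels, because they were much higher in the CD200-high libraries than in the rest, so their difference from the other populations is given as a description and not tested. All groups were untreated B6 mice with no transgene named, and the age and sex of the animals are not given in the sources used here. The cells came from crushed tibia, femur and iliac bone. CD200-high capillaries were sorted as CD200Hi, Sca1+, CD31+, EMCN- and CD45-, type H vessels as EMCN+, Sca1+, CD31+ and CD45-, arterial cells as CD200-, Sca1+, CD31+ and CD45-, and sinusoidal cells as CD31+, Sca1+ and CD45-. Each population had 3 libraries, which the labels call biological triplicates prepared from 6 mice. The labels number a mouse 1 to 3 in every population but do not say how 6 mice became triplicates or whether animals were pooled, so p-values measure the spread between these libraries.

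The bone marrow is supplied by arteries that break into capillaries close to the bone surface and drain into wide sinusoids. Type H vessels are capillaries near the growth plate and endosteum that are known for lying beside bone-forming cells. CD200 is a surface glycoprotein that restrains immune cells through its receptor. None of the 10 genes is a standard marker of a vessel type. By function they fall into secreted regulators of Wnt signalling (Notum, Cpz), a transporter and a channel subunit (Slc9a2, Chrnb4), neuronal-type and orphan surface proteins (Lingo3, Gpr135), proteins of the membrane cortex (Gramd2, Baiap2l2), a nuclear export factor (Ranbp3l) and a long non-coding RNA (BC055402).

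The deposited values were log2 CPM, with 0.5 read added to each count (CPM, counts per 1e6 reads after the authors' scaling of library sizes), and whole reads were recovered from them. Listed reads ran from 7.33 M to 21.6 M per library (M, 1e6 reads), and 1 read was worth 0.0405 to 0.148 CPM. The transcripts of the sorting antigens followed the gates only in part. Cd200 was highest in CD200-high, with a mean of 9.81 log2 CPM, and lower in arterial (7.68), type H (7.80) and sinusoidal (5.43) libraries. Emcn, the transcript of the antigen gated out of that sort, averaged 9.02 in type H and still 8.26 in CD200-high. The libraries labelled sinusoidal went against their label: Ly6a, which encodes the Sca1 they were gated on, had 4.05 there and 8.92 to 10.19 in the other populations, Emcn had 2.08, and 12 pan-endothelial markers summed to 238 to 255 CPM. Every level, fold and call given for sinusoidal cells is therefore one of libraries so labelled. Ptprc, which encodes CD45, was not absent, and was highest in arterial (7.41) and sinusoidal (6.55) libraries, with 5.38 in CD200-high and 3.98 in type H.

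The name of the CD200-high population was checked against a list of 10 capillary markers and lists of other cells. The CD200-high libraries held 5922 to 11148 CPM of capillary markers, type H libraries 10260 to 12091, arterial libraries 3443 to 3899 and sinusoidal libraries 139 to 167, so that CD200-high overlapped type H. Pan-endothelial markers, all 12 in the table, summed to 2973 to 5374 CPM in CD200-high libraries, below type H (7828 to 8818) and above arterial (1548 to 2016) and sinusoidal libraries (238 to 255). The list of osteoblast and bone matrix genes, 13 of 14 in the table, took 13.1% to 19.4% of all CPM in CD200-high libraries, with none of its genes at 0 reads. Its sum was 131399 to 193752 CPM there, 4014 to 5598 in type H, where Bmp8a was at 0 in all libraries, 16672 to 18106 in arterial and 7800 to 17430 in sinusoidal libraries. Bglap, which encodes osteocalcin, averaged 15.17 log2 CPM and Sparc, a bone matrix glycoprotein, 15.01 in CD200-high. Osteocyte markers (847 to 1915 CPM) and markers of tendon and periosteal fibroblasts (4365 to 7059 CPM) were also above every other library. The 10 genes are therefore called genes high in the CD200-high libraries, and the part of RNA from bone-forming cells in their levels was not tested. Per 100000 CPM of the bone list, the lowest CD200-high library was at or below the highest of another population for 6 of the 10 genes and above all others for 4. The 6 were BC055402 (19.4 CPM against 48.3 in sinusoidal), Gramd2 (57.9 against 140.9 in sinusoidal), Slc9a2 (28.1 against 29.4 in arterial), Lingo3 (13.03 against 15.4 in sinusoidal), Notum (1.66 against 13.8 in type H) and Ranbp3l (30.1 against 34.5 in sinusoidal). In type H, Sparc averaged 12.07 log2 CPM and Bglap 3.87, so ratios there rest largely on Sparc. The 13.8 of Notum came from 10 reads in type H replicate 2. The highest arterial and sinusoidal values of Notum, 6.76 and 4.15, also exceeded its lowest CD200-high value. The 4 were Gpr135 (4.96 against 2.55 in arterial), Chrnb4 (0.553 against 0.342 in sinusoidal), Baiap2l2 (4.94 against 4.1 in sinusoidal) and Cpz (216.7 against 215.2 in arterial). The values of Chrnb4 came from 12 reads in CD200-high replicate 2 and 1 read in sinusoidal replicate 3. Counts this low do not settle its order against libraries with 0 or 1 read.

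**Figure D1:**
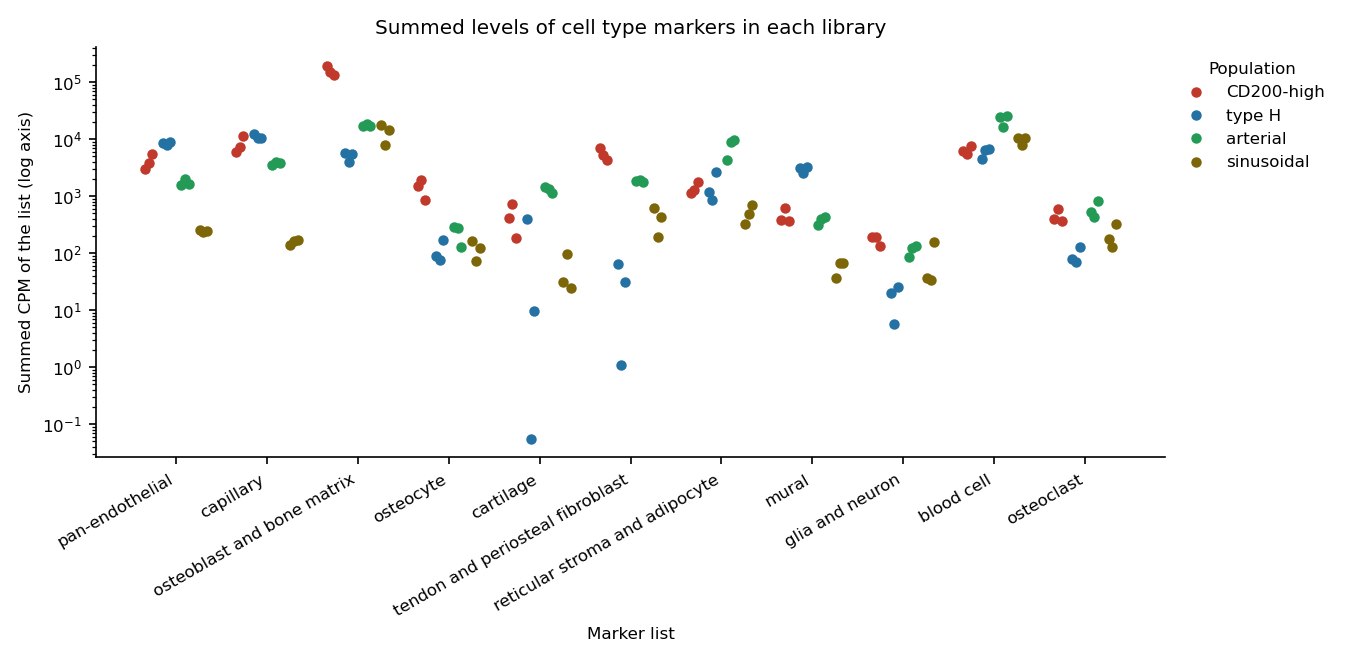
Summed CPM (vertical log axis) of 11 marker lists (horizontal axis) in each of 12 libraries; each point is 1 library and colours mark the population. The CD200-high libraries stand above all others for osteoblast and bone matrix genes, from 131399 to 193752 CPM, and below type H for pan-endothelial genes, from 2973 to 5374 CPM.

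Sequence upstream of the start site was available for 7 of the 10 genes, as 11 entries of RefSeq on build GRCm38.p6. The 250 bases before the start are printed for 4 genes. BC055402, Cpz and Gramd2 are shown because a searched motif lies in them, and Gpr135 as an example of a gene in which none does. Motifs were searched on both strands: TGTGGT for RUNX factors, held by 14.0% of 32851 such windows, CCGGAA for ETS factors (12.03%), CTTTGA for TCF/LEF factors (13.8%) and TATAAA for the TATA box (12.4%). Each sequence is read 5′ to 3′ on the strand of its gene, with the match in capitals.
BC055402, chr1:57214997-57215246, minus strand: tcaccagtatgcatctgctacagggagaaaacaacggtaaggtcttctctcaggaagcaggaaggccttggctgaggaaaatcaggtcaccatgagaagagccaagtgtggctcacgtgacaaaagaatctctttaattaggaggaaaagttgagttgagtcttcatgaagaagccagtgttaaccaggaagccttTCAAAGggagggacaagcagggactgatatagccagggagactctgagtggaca
Cpz, chr5:35525627-35525876, minus strand: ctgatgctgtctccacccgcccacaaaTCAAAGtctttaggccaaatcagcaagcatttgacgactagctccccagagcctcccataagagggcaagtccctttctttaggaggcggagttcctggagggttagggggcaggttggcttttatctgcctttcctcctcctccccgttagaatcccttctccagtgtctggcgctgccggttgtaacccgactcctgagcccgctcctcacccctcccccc
Gramd2, first of 4 start sites, chr9:59679583-59679832, plus strand: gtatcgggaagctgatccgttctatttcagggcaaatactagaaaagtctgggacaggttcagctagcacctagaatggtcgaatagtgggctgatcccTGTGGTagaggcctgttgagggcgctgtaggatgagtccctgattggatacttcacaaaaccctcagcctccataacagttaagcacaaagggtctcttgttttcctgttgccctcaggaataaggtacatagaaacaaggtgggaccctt
Gpr135, chr12:72071102-72071351, minus strand: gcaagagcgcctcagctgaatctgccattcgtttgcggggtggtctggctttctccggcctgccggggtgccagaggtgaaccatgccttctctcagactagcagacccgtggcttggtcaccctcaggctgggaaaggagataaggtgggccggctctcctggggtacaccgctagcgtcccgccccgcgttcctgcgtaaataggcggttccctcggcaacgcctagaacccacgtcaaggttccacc
In BC055402 the capitals mark the TCF/LEF letters on the opposite strand, 54 bases before the start. In Cpz they mark the same motif, also on the opposite strand, 223 bases before the start. In Gramd2 they mark the RUNX letters on the gene's strand, 151 bases before the first start, and the fourth start site held the same letters 79 bases before it. Gpr135, Chrnb4, Lingo3 and Ranbp3l held none of the 4 motifs. The windows differed in composition as well: GC content was 47.6% in BC055402, 48.4% in the Gramd2 window shown, 57.6% in Cpz and 62.8% in Gpr135, against a median of 52.4% over all windows. Gpr135 held 17 CG dinucleotides and BC055402 held 2, and the windows of Lingo3, not printed, held 27 and 25. A match is a run of letters and no measured site, and no motif was common to the 7 genes.

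All 3 CD200-high libraries held at least 12 reads of every one of the 10 genes, and the highest count was 7921. Of the 90 values in the other 9 libraries, 57 were 0 reads, 11 were 1 to 9 reads, 13 were 10 to 99 reads and 9 were 100 reads or more. In type H, 26 of 30 values were 0, and 7 of the genes had 0 reads in all 3 libraries, where 6.40% of all genes did. In arterial libraries 2 of the genes did, where 1.34% of all genes did, and in sinusoidal libraries 1, where 2.24% did. Low values outside CD200-high were part of the choice of the 10 genes, so nothing is read from these counts. A count of 0 allows up to 3 reads, which is 0.121 to 0.443 CPM depending on the library, and reads carry no molecular identifiers, so such limits cover counting error only. In all, 6 of the 10 genes passed the filter on low values (10 reads scaled to the mean depth, in at least 3 libraries) through the CD200-high libraries alone, and Slc9a2, Lingo3, Ranbp3l and Cpz would have passed without them. Every one of the 10 genes had its 3 CD200-high libraries above the other 9, as 874 of 17086 genes (5.12%) had, and 262 genes (1.53%) had them above by over 1 log2 unit. Since the genes were chosen for it, nothing is read from that share. In bulk RNA, fewer cells that express a gene and less of it per cell cannot be told apart.

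**Figure D2:**
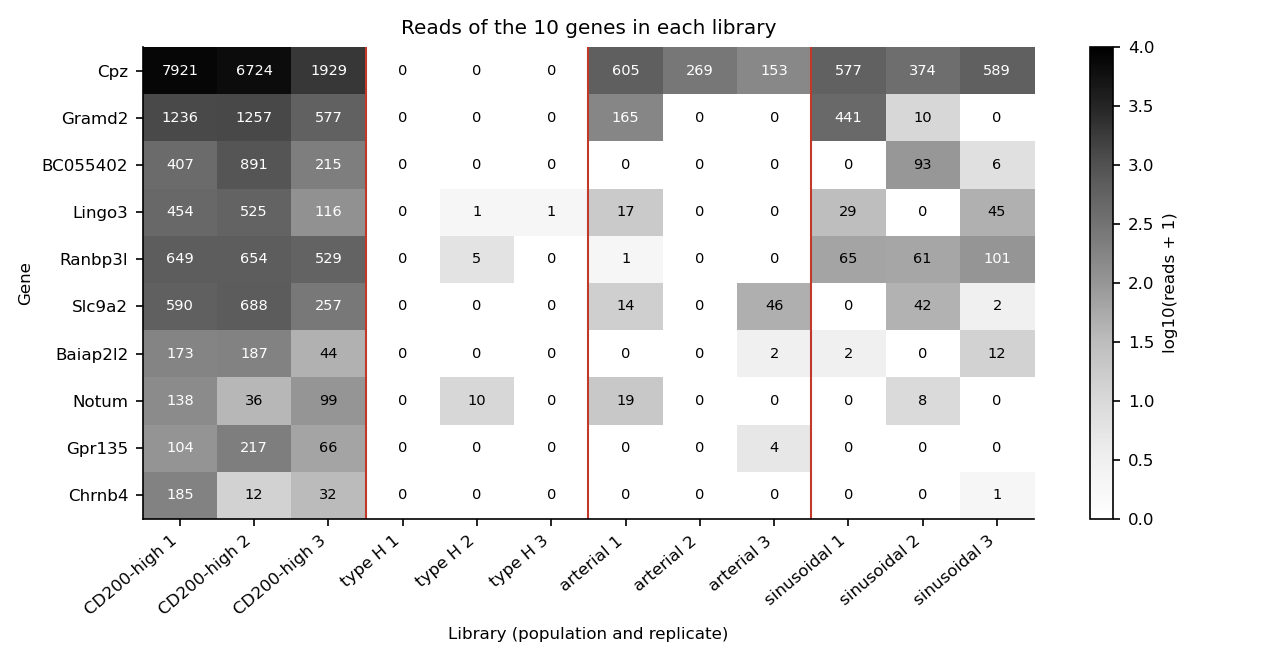
Reads of each of the 10 genes (rows) in each library (columns, 3 replicates of each population); the number is the read count and the shade its log10 after adding 1. The CD200-high columns are filled throughout, from 12 reads of Chrnb4 to 7921 of Cpz, and 26 of the 30 type H cells are 0.

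Among the secreted regulators, Cpz had by far the highest level of the 10. Cpz encodes carboxypeptidase Z, a secreted enzyme with a Frizzled-like domain that binds Wnt proteins. It stood at 732, 467 and 285 CPM in CD200-high replicates 1 to 3, from 7921, 6724 and 1929 reads. Type H had 0 reads in all 3 libraries. Arterial libraries had 36.0, 16.7 and 16.3 CPM and sinusoidal libraries 32.1, 15.1 and 28.7 CPM. The CD200-high libraries overlapped with none of the others, the lowest of them lying 7.91-fold above the highest other, arterial replicate 1. Its mean of 495 CPM was 21.5-fold that of arterial and 19.5-fold that of sinusoidal libraries. The CD200-high libraries differed among themselves by an SD of 0.68 on the log2 scale, where genes of like level had a median SD of 0.28. Their order was that of the bone matrix sum, 193752, 150788 and 131399 CPM, and this order of 3 libraries was not tested.

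Notum, the other secreted gene, encodes an enzyme that inactivates Wnt proteins by removing the lipid they need to bind their receptors. It was low: 12.8, 2.5 and 14.6 CPM in CD200-high, from 138, 36 and 99 reads. Elsewhere type H replicate 2 had 10 reads, arterial replicate 1 had 19, sinusoidal replicate 2 had 8, and the other 6 libraries had 0. The populations did not overlap, but the margin was the narrowest of the 10 genes, 1.13 on the log2 scale between the lowest CD200-high and the highest other library, a margin that ranked 228 among all genes that passed the filter. Notum is also uncertain as a measurement. In the mouse gene models 2 antisense genes of the table overlap its exons, Myadml2os over 1228 bases and Notumos over 708, and the strand counted is not given in the sources used here. Myadml2os had 59, 6 and 54 reads and Notumos 27, 11 and 29 reads in the CD200-high libraries, so all 3 genes were lowest in replicate 2, and their reads cannot be told apart.

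The transporter Slc9a2 encodes the sodium-proton exchanger NHE2, which moves protons out of cells and is best known from gut and kidney epithelium. It had 54.5, 47.8 and 37.9 CPM in CD200-high, from 590, 688 and 257 reads. Type H had 0 reads. Arterial replicates 1 and 3 had 0.833 and 4.89 CPM and replicate 2 had 0 reads, and sinusoidal replicates 2 and 3 had 1.70 and 0.0975 CPM and replicate 1 had 0 reads. The CD200-high values were close to each other, with an SD of 0.26 on the log2 scale, and the values elsewhere were scattered over the replicates without overlapping them. The mean of 46.8 CPM was 24.5-fold that of arterial and 78.0-fold that of sinusoidal libraries. A gene on the opposite strand lies over Slc9a2 but shares none of its exon bases.

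Chrnb4 encodes the beta 4 subunit of nicotinic acetylcholine receptors, ion channels of autonomic ganglia. Its 3 CD200-high libraries had 17.1, 0.833 and 4.72 CPM, from 185, 12 and 32 reads. In the other 9 libraries 1 read was counted in all, in sinusoidal replicate 3. The populations did not overlap, and the level within CD200-high varied most of the 10 genes, with an SD of 2.16 on the log2 scale, where genes of like level had a median SD of 1.25. The mean of 7.55 CPM, at least 44.0-fold above type H and at least 33.1-fold above arterial libraries against 3 reads per library, is carried mainly by replicate 1. An antisense gene model, Gm47877, covers 1146 of the exon bases of Chrnb4. Unlike the antisense genes over Notum it is not in the table, so it has no counts to set beside those of Chrnb4. Whether its reads add to those of Chrnb4 is not known.

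Of the surface proteins, Lingo3 belongs to a family of leucine-rich repeat proteins that are known mainly from neurons. It had 42.0, 36.5 and 17.1 CPM in CD200-high, from 454, 525 and 116 reads. Type H had 1 read in each of replicates 2 and 3, arterial replicate 1 had 17 reads, and sinusoidal replicates 1 and 3 had 29 and 45. The remaining 4 libraries were at 0, and the lowest CD200-high value was 7.81-fold the highest elsewhere. In the mean, CD200-high was 94.4-fold above arterial and 25.1-fold above sinusoidal libraries. Gpr135, an orphan receptor of the rhodopsin-like class with no settled ligand, had 9.61, 15.1 and 9.74 CPM in CD200-high, from 104, 217 and 66 reads. Outside them it had 4 reads, all in arterial replicate 3. Its margin of 4.33 on the log2 scale was the third widest of all genes and the widest of the 10, at a level where each library holds few reads. As the genes were chosen for being high in these libraries, nothing is read from that rank. As mean CPM against 3 reads per library it was at least 66.9-fold higher than in type H and at least 79.2-fold higher than in sinusoidal libraries.

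Gramd2 encodes a GRAM-domain protein that tethers the endoplasmic reticulum to the plasma membrane. It had 114, 87.3 and 85.2 CPM in CD200-high, from 1236, 1257 and 577 reads, and 0 reads in type H. Arterial replicate 1 had 165 reads (9.82 CPM) and the other 2 arterial libraries 0. Sinusoidal replicate 1 had 441 reads (24.6 CPM), replicate 2 had 10 and replicate 3 had 0. Gramd2 was tight in CD200-high (SD 0.23 on the log2 scale) and uneven elsewhere: it was the one gene of the 10 with both 0 reads and 100 reads or more within a population, as 1.68% of all genes were in arterial and 1.17% in sinusoidal libraries. Its CD200-high libraries still did not overlap the others, and their mean of 95.6 CPM was 29.2-fold that of arterial and 11.5-fold that of sinusoidal libraries.

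Baiap2l2 encodes an I-BAR protein, which binds and shapes the plasma membrane together with the actin beneath it. It had 16.0, 13.0 and 6.49 CPM in CD200-high, from 173, 187 and 44 reads. Elsewhere it was at 2 reads in arterial replicate 3, 2 in sinusoidal replicate 1 and 12 in sinusoidal replicate 3, with 0 in the other 6 libraries. The lowest CD200-high library was 11.1-fold the highest other library, and the mean of 11.8 CPM was 50.9-fold the sinusoidal mean. The populations did not overlap, and the 3 CD200-high libraries varied about as much (SD 0.67 on the log2 scale) as genes of like level did (median SD 0.78).

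Ranbp3l encodes a Ran-binding protein that exports BMP-activated SMAD proteins from the nucleus. It had 60.0, 45.4 and 78.1 CPM in CD200-high, from 649, 654 and 529 reads. Sinusoidal libraries had 3.62, 2.47 and 4.92 CPM, from 65, 61 and 101 reads, whereas type H had 5 reads in replicate 2 and arterial 1 read in replicate 1. It was therefore detected in every library of 2 populations and came to 5 and 1 reads in all in the other 2, and its CD200-high mean of 61.2 CPM was 16.7-fold the sinusoidal mean. The highest Ranbp3l level was in replicate 3, where the bone matrix sum was lowest, and this order of 3 libraries was not tested.

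BC055402 is a long intergenic non-coding RNA of 7 exon blocks on chromosome 1, with no known function. It had 37.6, 61.9 and 31.7 CPM in CD200-high, from 407, 891 and 215 reads. Sinusoidal replicates 2 and 3 had 93 and 6 reads, and the other 7 libraries had 0. The mean of 43.7 CPM was 32.3-fold that of sinusoidal libraries, and at least 255-fold and at least 192-fold above type H and arterial libraries against 3 reads per library. Its mean difference from the other 9 libraries, 9.24 on the log2 scale, ranked first of the 17086 genes that passed the filter, and Gramd2 (9.16) and Slc9a2 (8.39) came next. Since the genes were chosen for such differences, nothing is read from these ranks. The sizes also depend on the 0.5 read added. With a pseudocount of 1 CPM, the difference of BC055402 against type H was 5.43 in place of 10.53.

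**Figure D3:**
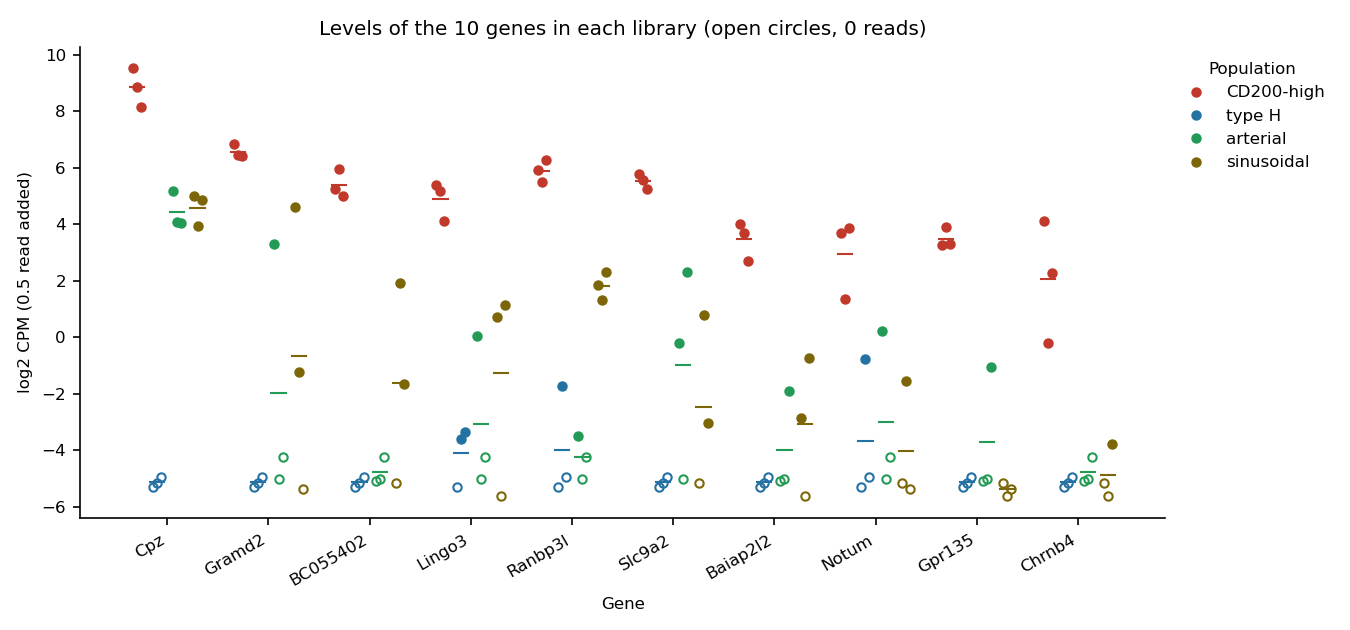
Log2 CPM (vertical axis) of the 10 genes (horizontal axis, ordered by CPM per kilobase in CD200-high) in each library; points are libraries, bars the mean of 3, colours the population, and open circles libraries with 0 reads. For every gene the 3 CD200-high points lie above the other 9, and the step down to the next library is narrowest for Notum, at 1.13 log2 units.

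Levels were set against each other per kilobase of exon, using the mouse gene models of GENCODE. In CD200-high, Cpz stood first with 220 ± 100.2 CPM per kilobase (SD, n = 3), followed by Gramd2 with 15.6 ± 2.64 and BC055402 with 13.3 ± 4.84. Next came Lingo3 (8.95 ± 3.67), Ranbp3l (8.92 ± 2.39) and Slc9a2 (6.69 ± 1.20). The lowest were Baiap2l2 (4.33 ± 1.78), Notum (4.13 ± 2.71), Gpr135 (3.64 ± 0.99) and Chrnb4 (2.03 ± 2.28). Only Cpz stood apart from the next gene in this order, and from Gramd2 down the libraries of each gene overlapped those of the next.

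The 10 genes did not keep step within the CD200-high population. Cpz, Lingo3, Slc9a2, Baiap2l2 and Gramd2 had their highest CPM in replicate 1 and their lowest in replicate 3, as the bone matrix sum had. Such orders of 3 libraries were not tested. BC055402 and Gpr135 were highest in replicate 2, Chrnb4 was highest in replicate 1 and lowest in replicate 2, and Notum and Ranbp3l were highest in replicate 3 and lowest in replicate 2. Over the 12 libraries the Pearson correlations of log2 CPM between the 45 pairs of the 10 genes ran from 0.55 to 0.92, with a median of 0.76. They follow from the choice of genes high in the same 3 libraries.

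The genes whose profile over the 12 libraries was most like each of the 10 were taken from 10409 genes. Cpz was closest to Car3 (r = 0.99), a carbonic anhydrase, Sp6 (0.99), a transcription factor of tooth and skin, and Col1a2 (0.99), a chain of type I collagen. Col1a2 averaged 14.67 log2 CPM in CD200-high, 11.20 in arterial, 10.93 in sinusoidal and 4.71 in type H libraries. Cpz and Col1a2 were thus both highest in CD200-high and lowest in type H. Lingo3 was closest to Wfdc6a (0.98), Creb3l1 (0.92), a transcription factor that drives collagen secretion, and Chn1 (0.90). Gramd2 was closest to Gpr37 (0.96), Hapln4 (0.91) and Sec61b (0.90), a part of the channel into the endoplasmic reticulum. Ranbp3l was closest to Gsg1 (0.96), Nhlrc1 (0.94) and Rrp8 (0.93). Nhlrc1 had 4.38 log2 CPM in CD200-high and 2.35 in sinusoidal libraries, with 0 reads in every type H and arterial library.

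The remaining genes had these neighbours. Slc9a2 and BC055402 were both close to Podxl2 (0.94 and 0.88), a relative of podocalyxin, with Galnt3 (0.94) and Lrrfip2 (0.91) beside Slc9a2, and Fhod3 (0.90) and Apol6 (0.89) beside BC055402. Gpr135 was closest to Tmem200a, Selenos and Hdhd2 (0.96, 0.96 and 0.95), Chrnb4 to Polr3d, Cdk5rap3 and Nme2 (0.96 each), Baiap2l2 to Chsy1 (0.94), B4galnt3 (0.92) and Golt1b (0.92), and Notum to Uqcc2 (0.90), Sra1 (0.87) and Kcnk6 (0.87). The mean profile of the 10 was closest to Creb3l1 and Serf1 (0.97 each), followed by Sec23a (0.96), Sra1, Plod2, Sec61b, Shc2, Podxl2, Surf4 and Lnx1. Creb3l1, Sec23a, a coat protein of secretory vesicles, and Plod2, an enzyme that modifies collagen, averaged 7.40, 7.01 and 8.29 log2 CPM in CD200-high libraries, while type H had 2.91, 5.38 and 2.22. These correlations describe 12 libraries that share 4 populations and carry no test.

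Of the 10 genes, 4 (Slc9a2, Lingo3, Ranbp3l and Cpz) passed the filter on low values from the type H, arterial and sinusoidal libraries alone, and differences among those 3 populations are read for these. The other 6 passed through the CD200-high libraries only and lay mostly at 0 reads elsewhere, so a test could hardly call them, and low values there were part of the choice of all 10. Cpz and Ranbp3l were the genes called (limma, Benjamini-Hochberg adjusted p under 0.05 over 17086 genes). Cpz was lower in type H than in arterial libraries by a fitted -9.56 (SE 0.58, adjusted p = 3.65e-06), and lower than in sinusoidal libraries by -9.73 (adjusted p = 3.86e-07) on the log2 scale. As type H held 0 reads, these sizes depend on the 0.5 read added, and as mean CPM, set against 3 reads per library, Cpz was at least 134-fold higher in arterial and at least 148-fold higher in sinusoidal than in type H libraries. Ranbp3l was lower in type H than in sinusoidal libraries by -5.81 (SE 1.15, adjusted p = 0.00261), and lower in arterial than in sinusoidal libraries by -6.07 (adjusted p = 0.00543).

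In counts, 1 of these 4 genes was lower and 0 higher in type H than in arterial libraries, where 12.7% and 7.96% of all genes were. Against sinusoidal libraries 2 of 4 were lower in type H and 0 higher, where 14.6% and 13.9% of all genes were. Between arterial and sinusoidal libraries 1 of 4 was lower in arterial and 0 higher, where 2.14% and 8.09% of all genes were. None of the 4 was higher at an unadjusted p under 0.05 or with voom weights, and nothing is read from counts this small. The other 8 of the 12 tests gave adjusted p from 0.14 to 0.908, which does not show that the levels were equal. Of those, 2 were called when 1 library was left out: Slc9a2 in type H against arterial without arterial replicate 2 (adjusted p = 0.0291) and Lingo3 in type H against sinusoidal without sinusoidal replicate 2 (0.0454).

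Relatives and partners of the 10 genes were taken as 10 lists of 135 genes, of which 91 were in the table and passed the filter. Against arterial libraries 4 of 91 (4.4%) were higher in CD200-high and 10 (11%) lower, where 4.75% and 8.15% of all genes were. Against type H 18 (19.8%) were higher and 6 (6.59%) lower, where 6.66% and 6.35% of all genes were. Against sinusoidal libraries 24 (26.4%) were higher and 9 (9.89%) lower, where 14.1% and 14.6% of all genes were. The median difference of the relatives was -0.22, 0.83 and 0.97 on the log2 scale in that order, beside -0.22, -0.05 and -0.22 for all genes. The 3 comparisons share the CD200-high libraries. The lists were chosen with earlier results of these data known, so these shares are a description and no independent support. The bone matrix sum was above all libraries of each other population by 9.24-fold, 31.6-fold and 12.1-fold in the mean against arterial, type H and sinusoidal, and its part in these counts was not tested.

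**Figure D4:**
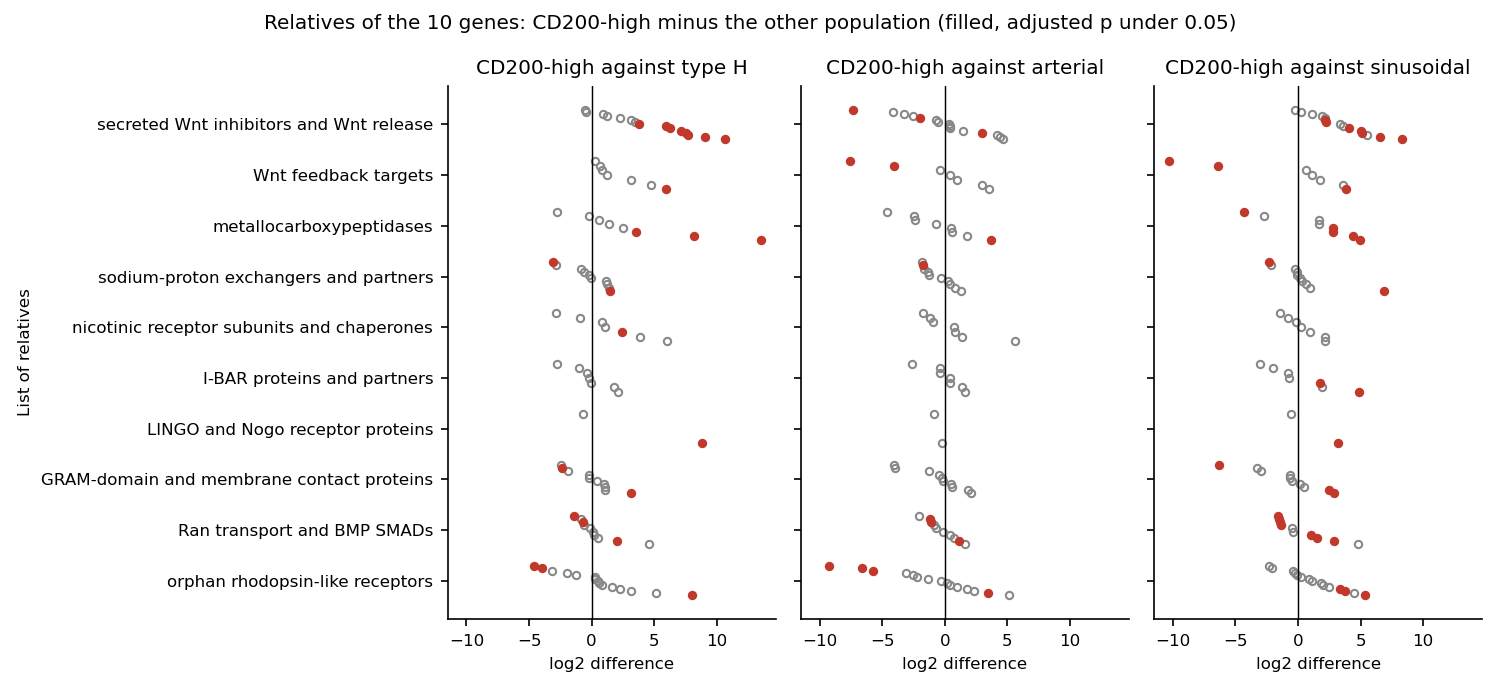
Log2 difference of CD200-high minus the other population (horizontal axis) for each of 91 relatives of the 10 genes, in 10 lists (vertical axis) and 3 comparisons (panels); each point is a gene, filled where limma's adjusted p was under 0.05. Filled points to the right of 0 are most frequent in the list of secreted Wnt inhibitors and genes of Wnt release in the type H panel, 8 of 15 genes. They are few in the arterial panel, 1 of 15, the glypican Gpc1. The 8 include the glypicans Gpc1, Gpc3 and Gpc4.

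Of the secreted Wnt inhibitors and genes of Wnt release, the list of Notum and Cpz's pathway, 8 of 15 were higher and 0 lower than in type H, 7 and 0 against sinusoidal, and 1 and 2 against arterial libraries. Gpc1, a glypican that binds growth factors at the cell surface, was higher in all 3 comparisons, with 8.40 ± 0.65 log2 CPM in CD200-high (SD, n = 3), 5.42 ± 0.31 in arterial, 4.35 ± 0.17 in sinusoidal and 1.29 ± 1.04 in type H libraries (adjusted p = 0.00262, 0.000102 and 5.03e-06). Wif1, a secreted protein that traps Wnts, was higher than in type H by 3.75 (SE 0.43, adjusted p = 0.000164) and than in sinusoidal libraries by 2.18 (adjusted p = 0.00298), and stood at 7.36 in CD200-high and 6.93 in arterial libraries. Gpc3, another glypican, was higher than in type H by 7.57 (SE 1.42, adjusted p = 0.0043), with 2 reads in all in type H. Sfrp4, a secreted Frizzled-related protein, averaged 8.75 in arterial and 6.77 in CD200-high libraries, beside 5.86 for type H and 4.53 for sinusoidal ones.

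Feedback targets of Wnt signalling were split. Against arterial libraries 0 of 7 were higher and 2 lower, against type H 1 and 0, and against sinusoidal libraries 1 and 2. Lgr5, a receptor for R-spondins, had 0 reads in all 3 CD200-high libraries and 1 in type H, but 250, 73 and 112 reads in arterial and 1304, 1433 and 1163 in sinusoidal libraries, so it was lower in CD200-high than in both (adjusted p = 0.000776 and 1.76e-05). Lef1, a transcription factor of the pathway, stood at 2.62 ± 0.33 log2 CPM in CD200-high and 9.03 ± 0.14 in sinusoidal libraries, a difference of -6.40 (SE 1.02, adjusted p = 0.000693). Tcf7, its relative, went the other way, with 5.11 ± 0.46 in CD200-high and 1.29 ± 1.90 in sinusoidal libraries (adjusted p = 0.0113).

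Among metallocarboxypeptidases, the enzyme family of Cpz, 3 of 8 were higher and 0 lower than in type H, 4 and 1 against sinusoidal, and 1 and 0 against arterial libraries. Cpe, which trims peptide hormones in secretory vesicles, was, like Cpz, highest in CD200-high and lowest in type H, with 9.15 ± 1.01 log2 CPM in CD200-high, 5.49 ± 0.34 in arterial, 4.72 ± 0.13 in sinusoidal libraries and 2 reads in all in type H. It was higher than in type H by a fitted 13.51 (adjusted p = 1.01e-06), than in arterial libraries by 3.66 (SE 0.72, adjusted p = 0.0068) and than in sinusoidal libraries by 4.43 (adjusted p = 0.000797). Cpxm2, a family member without known enzyme activity, had 120, 52 and 99 reads in CD200-high and 0 in type H, at least 57.0-fold higher in mean CPM (adjusted p = 0.00381). Cpd, a membrane-bound member, averaged 6.46 in type H, 6.22 in CD200-high, 5.76 in arterial and 3.38 in sinusoidal libraries.

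Of the exchanger list, 1 of 10 was higher and 1 lower than in type H and than in sinusoidal libraries, and 0 higher and 1 lower than in arterial libraries. Slc9a3r2 and Slc9a3r1 encode scaffolds that hold exchangers at the membrane. Slc9a3r2 was higher than in sinusoidal libraries by 6.88 (SE 0.47, adjusted p = 1.62e-06), and Slc9a3r1 was lower by -2.31 (SE 0.27, adjusted p = 7.79e-05) and lower than in arterial libraries by -1.77 (adjusted p = 0.00168). It was higher than in type H by 1.43 (adjusted p = 0.00459), a call lost with voom weights (0.0665) and in a fit of the 2 populations alone (0.13). Slc9a9, an exchanger of endosomes, was lower than in type H by -3.13 (SE 0.57, adjusted p = 0.0038). Chp1, a cofactor of the exchangers, stood between 7.36 and 7.70 in the 4 populations.

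Few of the possible partners of Chrnb4 could be tested. Of 17 listed nicotinic subunits and chaperones 8 were in the table and 7 were tested, and Chrna3, Chrna4 and Chrna5 were not analysed here. Against arterial and sinusoidal libraries 0 of 7 were called by limma, with 1 and 0 at an unadjusted p under 0.05 and 0 with voom weights. Against type H 1 was called, Chrnb1, a muscle-type subunit, which exceeded its type H level by 2.42 (SE 0.56, adjusted p = 0.0136), but not in a fit of the 2 populations alone (0.0746). Chrnb2 stood at 3.47 in CD200-high and 4.29 to 4.42 elsewhere. Chrna7 had 58, 0 and 2 reads in the CD200-high libraries.

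Relatives of Baiap2l2 showed 0 calls by limma against arterial and type H libraries, with 0 and 1 at an unadjusted p under 0.05 and 0 with voom weights, and 2 of 7 higher against sinusoidal libraries. Enah, a protein that extends actin filaments, was one of them, at 5.83 ± 0.57 in CD200-high and 1.0 ± 2.48 in sinusoidal libraries (adjusted p = 0.0117). Baiap2, the founding I-BAR protein, was the other, higher by 1.75 (SE 0.49, adjusted p = 0.0199), but it lost the call without CD200-high replicate 2 (adjusted p = 0.0687), without sinusoidal replicate 1 (0.0596) and without sinusoidal replicate 3 (0.062). In the list of Lingo3 only Tnfrsf19 and Rtn4rl1, both of the Nogo receptor system, could be tested. Tnfrsf19 was higher than in type H by 8.85 (SE 1.38, adjusted p = 0.0013), and Rtn4rl1 was higher than in sinusoidal libraries by 3.19 (SE 0.58, adjusted p = 0.00162). Neither was highest in CD200-high. Tnfrsf19 averaged 6.94 there, 7.16 in arterial and 7.47 in sinusoidal libraries, and Rtn4rl1 5.11 there, 5.82 in type H and 5.96 in arterial libraries.

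In the list of Gramd2, 0 of 10 genes were called by limma against arterial libraries (1 at an unadjusted p under 0.05, 0 with voom weights), 1 was higher and 1 lower against type H, and 2 higher and 1 lower against sinusoidal libraries. Stim1, the calcium sensor that works at the contacts of the endoplasmic reticulum with the plasma membrane, was lower in CD200-high than in type H by -2.35 (SE 0.26, adjusted p = 0.000111). Esyt2, a tether of the same contacts, was higher than in sinusoidal libraries by 2.47 (SE 0.47, adjusted p = 0.00216). Gramd1b, a cholesterol transporter of the same family, averaged 3.81 in CD200-high and 0.70, 1.69 and 0.95 in type H, arterial and sinusoidal libraries. It was the higher gene against type H (adjusted p = 0.0492), a call lost in 15 alternatives, among them quantile normalization (0.156) and a fit of the 2 populations alone (0.134), and its call against sinusoidal libraries (0.0399) was lost in 8.

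For Ranbp3l's pathway, 3 of 10 genes were higher and 4 lower than in sinusoidal libraries, 1 and 2 against arterial and 1 and 2 against type H. Ran, the GTPase that drives nuclear transport, was lower than in arterial libraries by -1.15 (SE 0.17, adjusted p = 0.00152) and than in sinusoidal libraries by -1.39 (adjusted p = 0.000123). Rangap1, its activating protein, was lower by -1.13 (SE 0.23, adjusted p = 0.00828) and -1.59 (adjusted p = 0.000371) in the same comparisons. Smad1, a carrier of BMP signals, stood at 5.5 ± 1.55 in CD200-high and 2.63 ± 0.41 in sinusoidal libraries (adjusted p = 0.00632). In type H Smad1 averaged 6.35, above CD200-high, and in arterial libraries 3.90. Of the orphan receptors beside Gpr135, Gpr182, an atypical chemokine receptor of endothelium, was lower than in type H by -3.95 (SE 0.66, adjusted p = 0.00198) and higher than in arterial libraries by 3.47 (adjusted p = 0.00565) and than in sinusoidal libraries by 5.38 (adjusted p = 0.000108). Gpr160 was lower than in type H by -4.59 (SE 0.90, adjusted p = 0.00546), and Gpr153, with 391, 6 and 160 reads in CD200-high, had 0 reads in type H (adjusted p = 0.00677). Gpr153 averaged 2.87 log2 CPM in CD200-high and 3.17 in arterial libraries. Over the 15 orphan receptors tested, 1 was higher and 2 lower than in type H, 1 and 3 against arterial and 3 and 0 against sinusoidal libraries.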

How the data were processed

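RNA from sorted cells was read as cDNA made with a low-input kit, at 150 bp. The authors deposited 1 table of log2 values: log2 CPM (0.5 read added) relative to a scaled library size. Undoing the log gave whole reads within 0.01 for 100% of values. The tools in the submitters' processing notes were featureCounts, STAR and Trimmomatic, with SAMtools, deepTools and R 4.3, settings not given, and the notes name a human build for mouse samples, so coordinates of gene models are not printed. The scaling method and the strand are not given in the sources used here.

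Libraries were grouped by title. limma 3.58.1 in R 4.3.3, with a mean-variance trend and all 12 libraries in 1 fit, was run on genes with at least 10 reads, scaled to 15.9 M (1e6 reads), in 3 libraries (17086 kept, 276 removed). It was also run on simulated counts with the same spread between replicates for all genes. That run does not cover genes with both 0 reads and 100 reads or more within a population, which were 4.82% of all genes in CD200-high. The members, the lists and the rule for named genes were chosen with earlier results of these data known. The rule took the 3 closest profiles of each gene, the 10 closest to their mean, and in each list of relatives up to 3 called genes with the smallest adjusted p and the most abundant one. Upstream windows came from RefSeq, with their positions on its own build, GRCm38.p6. The deposited log2 scale replaced the planned pseudocount of 1.

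The labels number the mice 1 to 3 in each population and do not say that equal numbers are the same animal, so the fit has no replicate block.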

Additional observations from a re-analysis of the deposited data

How the results depend on the processing

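The differences of the 10 genes between CD200-high and each other population kept their direction under every alternative tried. The genes were chosen for these differences and their CD200-high libraries lay above the other 9, so nothing is read from that. Of the sizes of these differences, 22 moved with a pseudocount of 1 CPM, 9 under quantile normalization and 1 with the listed total as library size. A filter of 50 reads left 8 of the 10 genes. The cause of the changes below was not tested. Genes called between CD200-high and arterial libraries went from 2204 to between 1353 (without arterial replicate 1) and 2458 when 1 library was left out. Fitting only the 2 populations gave 1337 in place of 2223 genes against type H, with 14 in place of 24 relatives, and 2829 in place of 1748 genes between arterial and sinusoidal libraries, where leaving out 1 library gave 1019 to 1870. Relatives called against arterial libraries went from 14 to 22 with a pseudocount of 1 CPM, and those against sinusoidal libraries from 33 to between 21 (without sinusoidal replicate 1) and 36. Genes of the 10 called between type H and arterial libraries went from 1 to 2 without arterial replicate 2. Cpz in arterial minus sinusoidal libraries (-0.17) ran from -0.54 to 0.039, and Ranbp3l in type H minus arterial libraries (0.26) from -0.88 to 0.91, when 1 library was left out. Of the 8 tests of Slc9a2, Lingo3, Ranbp3l and Cpz that were not called, 4 changed sign in some alternative, so no direction is given for them. Of the alternatives for the named relatives, 921 kept the call and 69 lost it, most often Gramd1b against type H (15) and sinusoidal libraries (8), Sfrp4 against arterial (11), Ran against type H (7) and Lef1 against arterial libraries (6). With the listed total as library size, the share of calls higher in CD200-high fell from 36.8% to 24.6% against arterial and from 49.1% to 35.5% against sinusoidal libraries, and the share higher in arterial than in sinusoidal fell from 79.1% to 69.1% (69.0% under quantile normalization). That scaling moved the median of all genes from -0.22 to -0.41, from -0.05 to -0.18 and from -0.22 to -0.53 against arterial, type H and sinusoidal libraries. Without the sinusoidal libraries 14 and 22 relatives were called against arterial and type H libraries. Deviations of libraries with the same mouse number correlated from -0.11 to 0.19 (median 0.04, 5 of 18 over 0.1, 7657 genes). All 3 were over 0.1 in 1 of the 6 pairs of populations, type H with sinusoidal. In 3 of 6 pairs all 6 libraries were closest to their own number: CD200-high with arterial, type H with sinusoidal and arterial with sinusoidal. In type H with arterial 5 of 6 were, in CD200-high with sinusoidal 1 and in CD200-high with type H 0. Whether equal numbers mark the same animal is not settled by these values. With the replicate block, 14, 22 and 33 relatives were called in the 3 comparisons of CD200-high, beside 14, 24 and 33, and 1, 2 and 1 of the 10 genes in the others, as without it. The block ended the call of Gramd1b against type H (adjusted p = 0.0585).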
